A study of Mus musculus with 6 samples.

Results

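The smooth muscle contractile genes are the genes whose products build and control the actin and myosin apparatus of smooth muscle. The 10 genes examined were Acta2, Actg2, Cnn1, Cnn2, Tagln, Tagln2, Myl9, Mylk, Cald1 and Smtn. They were chosen by symbol from the array's annotation, among 18193 genes with a probe set assigned to exactly 1 gene. The choice was made with earlier results of these data known. No filter on low signals was applied, so all 10 were kept. They had 20 probe sets, where a probe set is the group of short oligonucleotides whose signals are combined into 1 value. The brightest probe set of a gene, by its mean signal, was taken as the main one, and the other 10 were set against it.

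The 3 arrays labelled DKO came from mouse embryonic fibroblasts lacking both Abl kinases, c-Abl (Abl1) and Arg (Abl2). The 3 arrays labelled WT came from wild-type fibroblasts. Both groups were of the C57BL/6 strain, from embryos at 14 days of gestation with the sexes pooled, grown in medium with 10% serum and with no further treatment. The labels do not say how many embryos, cultures or clones stand behind a group, so every p-value speaks only of the scatter among arrays of a group, which may be technical.

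In smooth muscle, calcium-bound calmodulin activates myosin light chain kinase, which phosphorylates the regulatory light chain of myosin II and so lets myosin pull on actin. Calponin and caldesmon bind the actin filament and restrain this pull, and transgelin and smoothelin bind actin filaments as well. Many of these genes are switched on through the serum response factor SRF, which binds a DNA site called the CArG box with cofactors of the myocardin family. Fibroblasts use related proteins in their stress fibres, and they make smooth muscle actin when they turn into myofibroblasts, the contractile cells of wounds and scars.

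Abl1 and Abl2 were not clearly lower in the arrays labelled DKO. The main Abl1 probe set had signals of 178, 171 and 161 in arrays labelled DKO, against 182, 183.0 and 189.9 in WT arrays, and the main Abl2 probe set had 267, 253 and 243 against 245, 262 and 261. The differences on the log2 scale were -0.11 and -0.01, with limma adjusted p of 0.0933 and 0.874 over all genes. The 2 dimmer Abl1 probe sets rose by 0.28 and 0.21. The outcome depended on the scaling. Scaling the arrays to their poly-A spikes gave 0.36 and 0.48 for the main Abl1 and Abl2 probe sets (limma adjusted p = 0.00108 and 7.23e-06). Scaling to the hybridization spikes gave -0.35 and -0.26 (adjusted p = 0.000653 and 0.00662). Abl1 was also lower with arrays centred on their median (-0.16, adjusted p = 0.0162) and higher with probe sets averaged (0.13, adjusted p = 0.0421). The position of these probes relative to the deletions was not analysed, so each direction below is that of the arrays labelled DKO. The arrays had medians of 13.4 to 14.7 and lower quartiles of 4.50 to 4.59. Across genes, which are not independent replicates, the lowest correlation of any 2 arrays of a group was 0.998 and the highest across groups was 0.907.

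The 10 genes did not move together. Acta2, Mylk, Cnn2, Smtn and Cald1 rose in the arrays labelled DKO, Tagln2 fell, and Actg2, Cnn1, Myl9 and Tagln did not pass the test (limma with Benjamini-Hochberg adjustment over all genes, adjusted p under 0.05). Of all genes tested, 24.3% were higher and 35.5% lower by the same rule, 59.8% together, so 6 called of 10 is close to the share of all genes. At least 2-fold rises on the log2(signal + 16) scale were found for 3 of the 10 genes and for 7.06% of all genes, and falls of that size for none of the 10 and for 8.85% of all genes. The groups did not overlap in 7 of the 10 genes, 6 with the arrays labelled DKO on top, and in 64.7% of all genes. Actg2, Cnn1 and Myl9 were under the median of all probe sets on every array, and Tagln lay close to it. Cultured fibroblasts commonly express Tagln, Cnn1 and Myl9, so these levels are unexpectedly low, and whether these probe sets report the genes was not tested. The median difference of the 10 genes was 0.16 on the log2 scale, against -0.03 for all genes tested. The count of 5 higher and 1 lower was 5 and 3 with each array centred on its median, 9 and 0 by the poly-A spikes and 4 and 3 by the hybridization spikes. Over all genes, rises made up 40.6% of the calls, and 29.4%, 78.7% and 22.1% under those 3 scalings in the same order. The poly-A spike level itself scattered among arrays of a group (log2 SD 0.09 in arrays labelled DKO and 0.13 in WT arrays). That of the hybridization spikes scattered as well (log2 SD 0.08 and 0.07). Such an error is shared by all genes of an array, but limma treats genes as separate. The limma adjusted p of Acta2 was 1.03e-126 under poly-A spike scaling, against 1.98e-14 as deposited. All p-values and counts by the poly-A or the hybridization spikes are therefore overconfident.

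**Figure D1:**
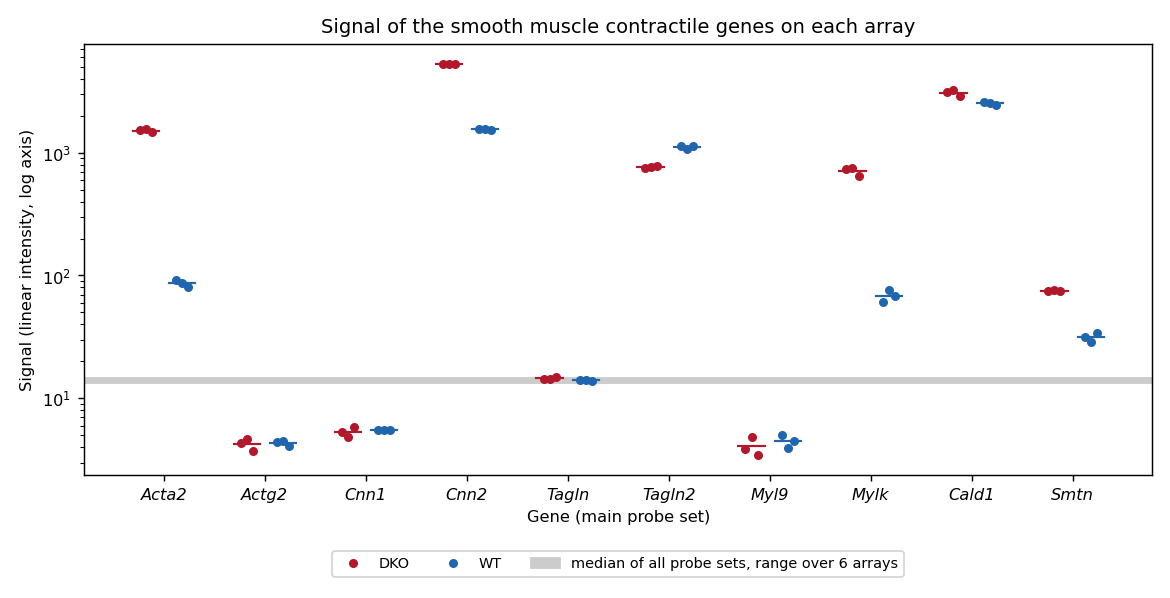
Signal (linear intensity, logarithmic axis) of the main probe set of each of the 10 genes on the 3 arrays labelled DKO (red, left) and the 3 WT arrays (blue, right), with a line at each group mean and a grey band for the median of all probe sets (13.4 to 14.7). Acta2 lies between 1467 and 1551 in arrays labelled DKO and between 80.3 and 92.4 in WT arrays, while Actg2, Cnn1 and Myl9 lie under the band in both groups.

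The promoters of Acta2, Cnn2 and Myl9 are shown because they held a CArG box or a close relative of it. Signals of Acta2 and Cnn2 rose, while that of Myl9 lay under the array median in both groups. Of the 10 genes, 8 had a promoter of 300 bases in the RefSeq table (GRCm38.p6), which runs from 250 bases before to 50 after the start. Tagln and Actg2 had none there, so they were not searched. Both strands were searched for the CArG box and for CArG-like sites, in which 1 of the 6 inner bases may be G or C. Capitals mark these sites.
Acta2, chr19:34255324-34255623, minus strand: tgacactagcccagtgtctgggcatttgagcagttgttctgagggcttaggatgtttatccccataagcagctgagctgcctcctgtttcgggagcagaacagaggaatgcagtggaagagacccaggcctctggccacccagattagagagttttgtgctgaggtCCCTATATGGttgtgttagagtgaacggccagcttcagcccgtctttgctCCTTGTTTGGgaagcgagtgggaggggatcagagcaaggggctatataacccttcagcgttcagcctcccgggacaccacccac
Cnn2, chr10:79988350-79988649, plus strand: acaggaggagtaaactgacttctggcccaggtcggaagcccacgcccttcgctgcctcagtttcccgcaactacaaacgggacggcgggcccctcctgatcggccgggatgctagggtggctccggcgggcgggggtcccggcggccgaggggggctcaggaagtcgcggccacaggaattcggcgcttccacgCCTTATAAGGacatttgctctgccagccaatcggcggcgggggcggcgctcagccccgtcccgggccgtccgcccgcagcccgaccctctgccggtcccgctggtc
Myl9, chr2:156775214-156775513, plus strand: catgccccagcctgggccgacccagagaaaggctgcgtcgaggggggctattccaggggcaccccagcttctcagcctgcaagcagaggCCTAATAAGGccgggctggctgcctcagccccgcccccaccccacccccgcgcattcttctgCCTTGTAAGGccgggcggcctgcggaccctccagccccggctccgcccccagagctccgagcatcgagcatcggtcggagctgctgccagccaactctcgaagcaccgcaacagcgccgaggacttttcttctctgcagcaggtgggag

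All distances here are to the start annotated in RefSeq, and whether transcription begins there in these cells was not tested. The Acta2 window held 2 CArG-like sites, CCCTATATGG and CCTTGTTTGG, starting 84 and 34 bases before that start. Cnn2 held 1 CArG box, CCTTATAAGG, starting 56 bases before the start. Myl9 held the CArG box CCTAATAAGG and the CArG-like site CCTTGTAAGG, starting 161 and 99 bases before the start. A CArG box was found in 1.63% of all 32851 promoters of this length, and a CArG box or CArG-like site in 9.98%. The MCAT element is the site of TEAD factors (CATTCC on either strand). It was found in windows of 5 of the 8 genes, Acta2, Tagln2, Mylk, Cald1 and Smtn, and in 14.7% of all promoters. These 8 genes had 9 promoters, and the second Cald1 promoter held no MCAT element. No site overlapped another kind in these windows, and each match is a description of the sequence only.

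Acta2 encodes the actin of vascular smooth muscle and myofibroblasts. Its signal was 1529, 1551 and 1467 in arrays labelled DKO, against 92.4, 87.4 and 80.3 in WT arrays. All 3 arrays labelled DKO were far above the WT arrays, with means of 1516 ± 43.5 and 86.7 ± 6.09 (SD, n = 3 each), a linear ratio of 17.5. The log2 difference was 3.90 ± 0.05 (SE, 95% interval 3.79 to 4.01, limma adjusted p = 1.98e-14), rank 106 from the top among 18193 genes. In these bulk samples, a larger number of cells making an mRNA and more of that mRNA per cell cannot be told apart.

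The other Acta2 probe sets were dim and moved the same way by less. The second one had 8.63, 7.90 and 9.38 in arrays labelled DKO, against 2.84, 3.82 and 3.22 in WT arrays, and its difference of 0.35 passed over all probe sets (limma adjusted p = 6.31e-07). The third one had 4.46, 5.74 and 3.47 against 3.24, 3.17 and 3.59. There the groups overlapped, and the difference of 0.09 passed narrowly (limma adjusted p = 0.0425). All values of both lay under the median of their array. The suffix of the bright Acta2 probe set (s) is the maker's mark for probes shared by several transcripts, and the size of the Acta2 difference rests on it: it was 1.45 with probe sets averaged and 0.35 with probe sets marked x, s or a left out.

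Actg2 encodes the actin of enteric smooth muscle. Its only probe set had 4.32, 4.70 and 3.74 in arrays labelled DKO, against 4.43, 4.45 and 4.11 in WT arrays. The groups overlapped near the lower quartile of the arrays, and the difference was -0.01 (95% interval -0.06 to 0.05, limma adjusted p = 0.851). By the poly-A spikes it passed as higher (0.10, limma adjusted p = 0.0067). Among the 4 other actin genes, Actg1 and Actb, the cytoplasmic actins, rose by 0.57 and 0.20, and the striated muscle actins Acta1 and Actc1 did not pass (-0.06 and -0.04, limma adjusted p = 0.204 and 0.11). Actb was at -0.06 under hybridization spike scaling. Signals of Actg1 were 8051 ± 172 in arrays labelled DKO and 5412 ± 49.3 in WT arrays (SD, n = 3 each). A sign of RNA quality is how much brighter the 3' end of a control transcript is than its 5' end. For beta-actin this log2 ratio was 0.36 ± 0.01 in arrays labelled DKO and 0.47 ± 0.03 in WT arrays (SD, n = 3 each, two-sided exact permutation p = 0.1, the smallest possible), and that of the Gapdh control was -0.17 and -0.15 (exact p = 0.6). Their part in the actin results was not tested.

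Mylk encodes the myosin light chain kinase, which starts contraction. Its signal was 736, 747 and 646 in arrays labelled DKO, against 61.3, 75.7 and 68.6 in WT arrays. The lowest array labelled DKO was well above the highest WT array. The means were 709.6 ± 55.4 and 68.5 ± 7.16 (SD, n = 3 each), a linear ratio of 10.4 and a log2 difference of 3.10 ± 0.07 (SE, 95% interval 2.94 to 3.26, limma adjusted p = 2.35e-12), rank 173 from the top. A second probe set had 261, 291 and 265 in arrays labelled DKO, against 25.2, 26.7 and 29.6 in WT arrays, a linear ratio of 10.02 close to that of the first. The dimmest Mylk probe set had 24.8, 29.6 and 25.1 against 14.1, 13.3 and 11.6, a linear ratio of 2.04. All 3 Mylk probe sets rose over all probe sets (2.74 and 0.55 on the log2 scale for the other 2), and none of them carries the mark x, s or a.

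Myl9 encodes the regulatory light chain that the kinase phosphorylates in smooth muscle. Its signal was 3.87, 4.86 and 3.43 in arrays labelled DKO, against 5.004, 3.92 and 4.49 in WT arrays. The groups overlapped near the lower quartile of all probe sets, with a difference of -0.03 (95% interval -0.10 to 0.04, limma adjusted p = 0.423). It passed as lower with arrays centred on their median (-0.08, limma adjusted p = 0.0329) or by the hybridization spikes (-0.08, adjusted p = 0.0275) and as higher by the poly-A spikes (0.08, adjusted p = 0.0432). Both non-muscle light chain genes were bright: Myl12a had 4399 ± 144 in arrays labelled DKO and 4191 ± 244 in WT arrays (SD, n = 3 each, 0.07, limma adjusted p = 0.239), and Myl12b fell by 0.48. The direction of Myl12b turned with probe sets averaged (0.19) and by the poly-A spikes (0.03).

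Among 7 further myosin II genes, 2 rose and 2 fell, against 24.3% and 35.5% of all genes. The counts were 5 and 1 by the poly-A spikes, 2 and 4 by the hybridization spikes, and 4 and 1 with probe sets averaged. Myh9, the heavy chain of non-muscle myosin IIA, had 3010, 3232 and 3121 in arrays labelled DKO, against 746, 803 and 825 in WT arrays, a log2 difference of 1.96. The groups were wide apart. The essential light chain gene Myl6 rose by 1.69. Its signal was 280 ± 63.5 in arrays labelled DKO and 75.1 ± 12.9 in WT arrays (SD, n = 3 each). Whether its probe set reports the gene was not tested. The non-muscle heavy chain gene Myh14 fell by 1.73 (2.59 with an offset of 1 and 0.89 with an offset of 64). Myh10, the heavy chain of non-muscle myosin IIB, had 1219.9 ± 23.0 in arrays labelled DKO and 1221 ± 60.8 in WT arrays (SD, n = 3 each, limma adjusted p = 0.989). Myh10 passed at 0.51 by the poly-A and at -0.26 by the hybridization spikes. Myh11 is the smooth muscle heavy chain and a defining marker of that cell type. It had 12.3 ± 0.74 in arrays labelled DKO and 13.2 ± 1.22 in WT arrays (SD, n = 3 each). Both means were just under the medians of the arrays, but WT array 2 was above its own (14.5 against 13.4). Myh11 did not pass (-0.05, limma adjusted p = 0.429).

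Cnn2 encodes calponin 2, the form of calponin found in fibroblasts and other non-muscle cells. Its signal was 5285, 5317 and 5305 in arrays labelled DKO, against 1554, 1555 and 1529 in WT arrays. The arrays of each group were nearly equal, and the groups lay wide apart. The coefficient of variation was 0.309% in arrays labelled DKO and 0.95% in WT arrays, against medians of 3.20% and 3.18% over 996 genes with a mean signal above 1000. The means were 5302 ± 16.4 and 1546 ± 14.7 (SD, n = 3 each), a linear ratio of 3.43 and a log2 difference of 1.77 ± 0.04 (SE, 95% interval 1.69 to 1.84, limma adjusted p = 6.07e-13). It kept between 1.51 and 2.28 over the alternatives tried.

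Cnn1 encodes calponin 1, the smooth muscle form. Its signal was 5.32, 4.87 and 5.79 in arrays labelled DKO, against 5.54, 5.57 and 5.56 in WT arrays. The groups overlapped and both lay under the median of the arrays (-0.02, 95% interval -0.07 to 0.04, limma adjusted p = 0.624). Its call changed with the scaling, to lower with arrays centred on their median (-0.07, limma adjusted p = 0.035) or by the hybridization spikes (-0.08, adjusted p = 0.0168) and to higher by the poly-A spikes (0.12, adjusted p = 0.00679). Cnn3, the third calponin gene, had 3751 ± 177.5 in arrays labelled DKO and 2809.9 ± 55.3 in WT arrays (SD, n = 3 each) and rose by 0.41, a call lost under hybridization spike scaling (0.15, limma adjusted p = 0.121, with 7.83e-12 under poly-A spike scaling).

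Cald1 encodes caldesmon, which restrains myosin on the actin filament and exists in a smooth muscle and a non-muscle form made from 1 gene. The main probe set had 3122, 3225 and 2889.6 in arrays labelled DKO, against 2603, 2534 and 2426 in WT arrays. The groups did not overlap, but the gap was small. The means were 3079 ± 172 and 2521 ± 89.0 (SD, n = 3 each), a linear ratio of 1.22 and a log2 difference of 0.29 ± 0.05 (SE, 95% interval 0.18 to 0.39, limma adjusted p = 0.000185). With the hybridization spikes as the common level the difference was 0.02 and the call was lost, and with the poly-A spikes it was 0.80.

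The 5 Cald1 probe sets did not move together. The second brightest had 2551, 2593 and 2755 in arrays labelled DKO, against 1805, 1757 and 2002 in WT arrays (0.50), and the third brightest rose by 0.29. Of the 2 dim probe sets, the brighter had 46.5, 45.6 and 46.2 in arrays labelled DKO, against 21.9, 23.7 and 18.5 in WT arrays (0.74). These 3 rose like the main one. The dimmest had 18.8, 17.2 and 17.5 in arrays labelled DKO, against 25.7, 22.8 and 21.9 in WT arrays, and fell by 0.22 (limma adjusted p = 0.0182). It was the only one of the 20 probe sets called in the direction opposite to the main probe set of its gene.

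Tagln encodes transgelin, also called SM22, an early marker of smooth muscle. Its signal was 14.4, 14.5 and 14.99 in arrays labelled DKO, against 14.2, 13.99 and 13.95 in WT arrays. The groups did not overlap, yet the difference was 0.03 (95% interval -0.07 to 0.12) and did not pass (limma adjusted p = 0.625). Signals of the arrays labelled DKO lay wholly above those of WT arrays for 25.7% of all genes, and wholly below for 39%. By the poly-A spikes it passed as higher (0.27, limma adjusted p = 0.00038), and its direction turned under quantile (-0.02), median (-0.02) and hybridization spike (-0.10) scaling, where it did not pass.

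Tagln2 encodes transgelin 2, the form found in many non-muscle cells, and was the only one of the 10 genes that fell. Its signal was 748, 766 and 783 in arrays labelled DKO, against 1134, 1071 and 1144 in WT arrays. All arrays labelled DKO were lower than all WT arrays. The means were 766 ± 17.3 and 1116 ± 39.8 (SD, n = 3 each), differing by -0.53 ± 0.04 on the log2 scale (SE, 95% interval -0.62 to -0.45, limma adjusted p = 1.21e-07). A second bright probe set had 338, 315 and 329 in arrays labelled DKO, against 510.3, 484 and 492 in WT arrays, and fell by 0.58. The third was at the bottom of the range, from 2.32 to 3.79 over the 6 arrays, and did not pass. The difference was -0.02 and the call was lost under poly-A spike scaling, and all 3 probe sets carry the mark x or a.

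Smtn encodes smoothelin, an actin-binding protein of contractile smooth muscle. Its signal was 75.4, 76.3 and 74.6 in arrays labelled DKO, against 31.5, 28.7 and 33.7 in WT arrays. The arrays labelled DKO were close to each other and all above the WT arrays. The means were 75.4 ± 0.81 and 31.3 ± 2.49 (SD, n = 3 each), a linear ratio of 2.41 and a log2 difference of 0.95 ± 0.07 (SE, 95% interval 0.79 to 1.11, limma adjusted p = 1.76e-07). At this low signal the offset of 16 shrinks the log2 difference, which was 1.24 with an offset of 1 and 0.55 with an offset of 64.

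**Figure D2:**
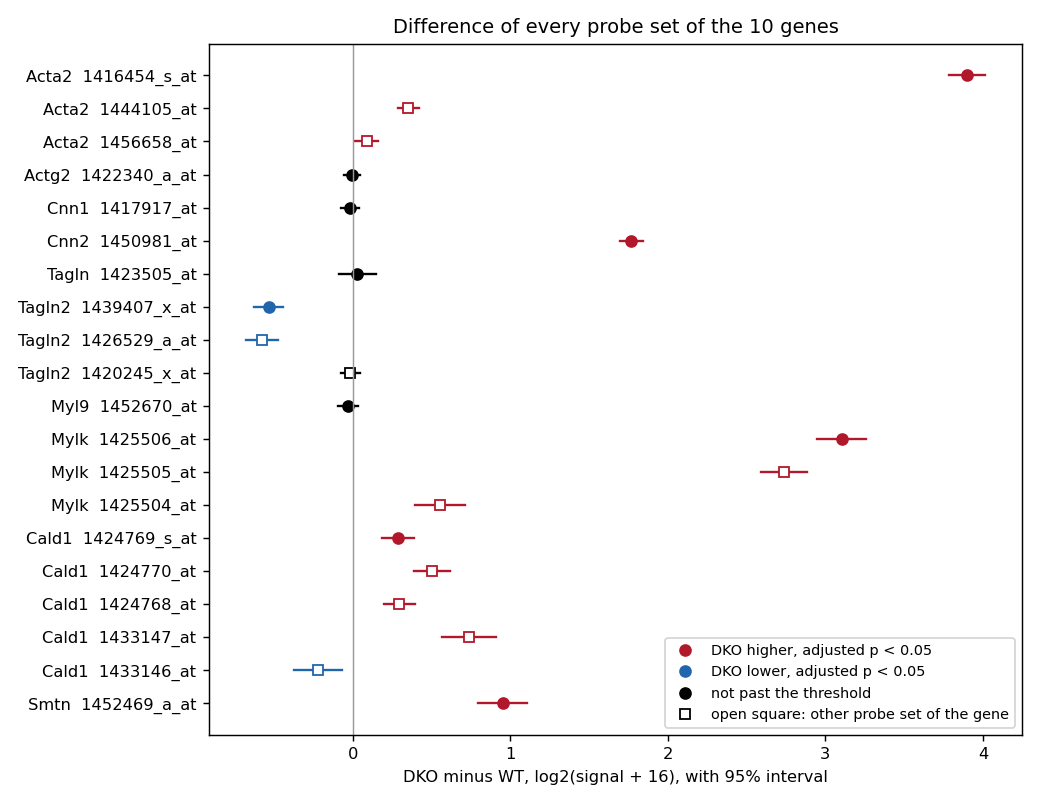
Difference, labelled DKO minus WT on log2(signal + 16), of all 20 probe sets of the 10 genes with its 95% interval from limma over all probe sets (filled circles for main and open squares for other probe sets, red where higher, blue where lower and black where not past an adjusted p of 0.05). The 3 Mylk probe sets lie at 3.10, 2.74 and 0.55, the 3 of Acta2 at 3.90, 0.35 and 0.09, and of the 5 of Cald1 only the dimmest lies under 0, at -0.22.

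Over the 20 probe sets, 12 rose, 3 fell and 5 did not pass, against 24.9% higher and 27.2% lower (52.2% together) among all 45037 probe sets that are not controls. Rises of at least 2-fold were found for 4 of the 20, of Acta2, Cnn2 and Mylk, and for 5.89% of all probe sets, and falls of that size for none of the 20 and for 5.65%. The groups did not overlap in 15 of the 20, 12 of them with the arrays labelled DKO on top, and in 58.5% of all probe sets (27% on top, 31.5% below). Of the 10 other probe sets, 8 had the same call as the main one, 1 the opposite call (Cald1) and 1 did not pass where the main one fell (Tagln2). Cnn1, Cnn2, Tagln, Myl9, Actg2 and Smtn had 1 probe set each, so no second probe set stood beside their values.

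Genes that control phosphorylation of the light chain were mixed. Of 9 measured of 13 listed, 4 rose and 4 fell, against 24.3% and 35.5% of all genes. Ppp1r14a, an inhibitor of myosin phosphatase known as CPI-17, had 4.58, 5.14 and 5.97 in arrays labelled DKO, against 102, 105 and 110.1 in WT arrays. It was thus close to the bottom of the range in all 3 arrays labelled DKO, a log2 difference of -2.52 whose size depends on the offset (-4.10 with 1 and -1.29 with 64). Ppp1r12b, a targeting subunit of that phosphatase, rose by 0.83 (0.16 with probe sets averaged). Ppp1cb, its catalytic subunit, fell by 0.55. Ppp1cb was at -0.05 by the poly-A spikes, where it did not pass. Rhoa fell by 0.66, with 1353 ± 37.4 in arrays labelled DKO and 2146 ± 48.9 in WT arrays (SD, n = 3 each). Rhoa was at -0.25 with probe sets averaged and at -0.15 by the poly-A spikes, where it did not pass. The list counted 5 higher and 1 lower under poly-A and 1 higher and 4 lower under hybridization spike scaling.

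SRF itself was not clearly changed, and its cofactors moved apart. Srf had 239 ± 18.1 in arrays labelled DKO and 253 ± 13.9 in WT arrays (SD, n = 3 each), a difference of -0.08 (limma adjusted p = 0.295), and of 0.41 and -0.33 with arrays scaled to poly-A and to hybridization spikes. Mrtfa, an actin-regulated cofactor of SRF, rose by 0.40, with 159.5 ± 4.40 in arrays labelled DKO and 117 ± 4.51 in WT arrays (SD, n = 3 each). Mrtfb, the related cofactor, fell by 0.996 on the log2 scale, with 222 ± 9.38 in arrays labelled DKO and 459.5 ± 26.6 in WT arrays. Neither direction turned under the 4 other scalings, but the sizes moved. Mrtfa was at 0.16 by the hybridization spikes (limma adjusted p = 0.0467) and 0.86 by the poly-A spikes, and Mrtfb at -0.50 by the poly-A spikes and -0.60 with probe sets averaged. Myocd, the smooth muscle and heart cofactor myocardin, was at 4.63 and 4.94 and did not pass (limma adjusted p = 0.522).

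Among 21 measured of 22 other smooth muscle differentiation genes, 6 rose and 8 fell, close to the 24.3% and 35.5% of all genes. Itga8, an integrin subunit, had 134, 139 and 149 in arrays labelled DKO, against 5.20, 3.72 and 4.26 in WT arrays (2.94). With WT arrays this dim, the size of the Itga8 difference depends on the offset (4.72 with 1 and 1.58 with 64), and it was 1.82 with probe sets averaged. Tpm1, a tropomyosin that lies along the actin filament, rose by 1.34. Csrp2, a LIM-domain protein of smooth muscle, had 73.4, 77.3 and 77.4 in arrays labelled DKO, against 574, 626 and 663 in WT arrays (-2.79), and the small heat shock gene Hspb6 fell by 1.36 (0.87 by the poly-A spikes). The median over this list was -0.05, and the counts were 11 higher and 5 lower under poly-A and 4 higher and 12 lower under hybridization spike scaling. Directions of the 4 genes named did not turn under any of the 4 other scalings.

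**Figure D3:**
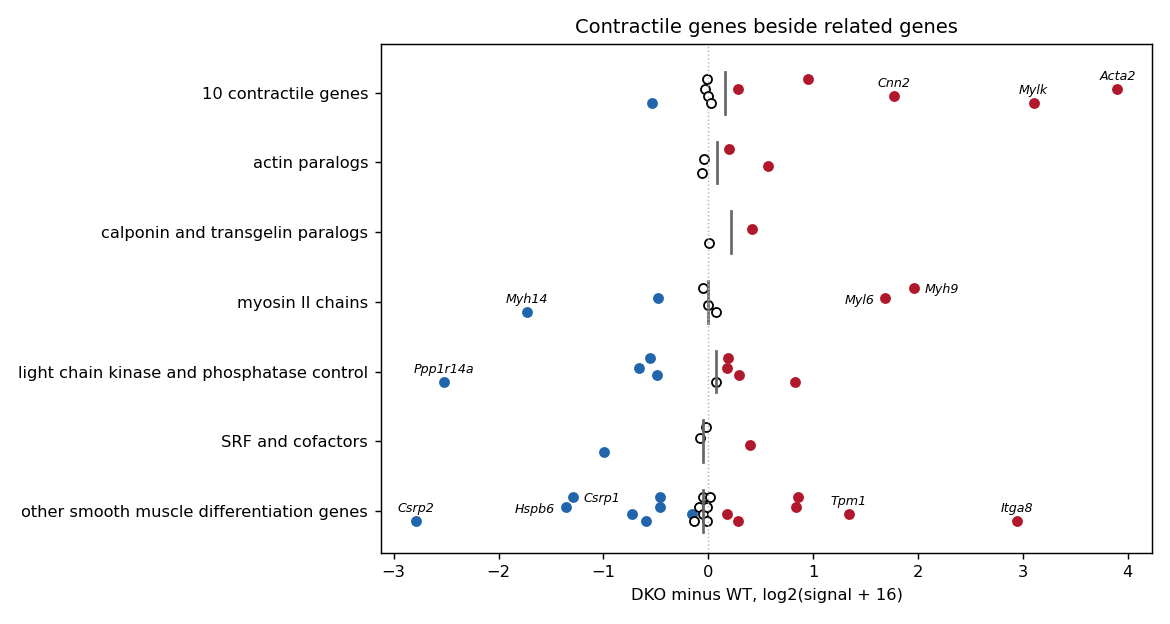
Difference, labelled DKO minus WT on log2(signal + 16), of the 10 contractile genes and of the measured genes of 6 related lists, one point per gene (red where higher, blue where lower, open where not past an adjusted p of 0.05) with a bar at each list's median. Acta2 lies at 3.90 and Mylk at 3.10 in the top row, and Ppp1r14a at -2.52 and Csrp2 at -2.79 are the lowest of their rows.

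Markers of smooth muscle cells did not rise as a list. Of 6, 2 of which (Smtn and Cnn1) are among the 10 genes, Smtn rose, Des and Lmod1 fell by 0.73 and 0.46, and Myh11, Cnn1 and Synpo2 did not pass. Their summed signal was 143 to 156 in arrays labelled DKO and 144 to 163 in WT arrays. Des, the muscle intermediate filament desmin, had 40.7 ± 5.66 in arrays labelled DKO and 78.1 ± 8.13 in WT arrays (SD, n = 3 each). Of 8 fibroblast markers 6 rose, among them Pdgfra and Col1a1 (6.12 and 1.80), and Col1a2 fell by 6.48. The sums were 12398 to 12778 in arrays labelled DKO and 8325 to 9285 in WT arrays, with Vim means of 7306 and 5288. A sum of signals is led by its brightest genes and is not an amount of a cell type. With probe sets averaged, Pdgfra and Col1a2 were at 4.23 and -4.14, and Des at -0.39. Thy1 did not pass, while Lum was among the 6 that rose (0.21, means of 8.04 and 4.81). Both stayed under the array median in both groups.

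Of the 5 pericyte markers, 1 fell (Notch3, -2.44, but -0.73 without probe sets marked x, s or a and -1.59 with probe sets averaged). The pericyte sums were 56.2 to 62.8 in arrays labelled DKO and 209 to 251 in WT arrays, with Notch3 means of 21.3 and 187. Of 6 skeletal and 4 cardiac muscle markers, 2 of each list fell and none rose. The skeletal genes were Mylpf (-0.70) and Myog (-0.07), and the cardiac genes Tnnt2 (-1.96) and Myl7 (-0.08). Tnnt2 was at -0.03 and did not pass without probe sets marked x, s or a (limma adjusted p = 0.192), and Myl7 did not pass with either other offset (adjusted p = 0.053 and 0.0557) or without the variance trend (adjusted p = 0.118). By the poly-A spikes Ckm, Actn3 and Tnnt3 rose (0.21, 0.11 and 0.17), and Myog and Myl7 were each at 0.05 and did not pass. The skeletal sums were 48.3 to 56.7 in arrays labelled DKO and 72.3 to 84.1 in WT arrays, and the cardiac sums 20.5 to 21.9 and 79.99 to 98.96, with Tnnt2 means of 7.78 and 77.1. None of 4 endothelial markers was called as deposited (sums 29.9 to 34.4 and 31.5 to 38.8). Kdr passed as lower under quantile (-0.19), median (-0.18) and hybridization spike (-0.27) scaling. Pecam1 passed as lower under median (-0.08) and hybridization spike (-0.07) scaling, and Cdh5 and Tek as higher by the poly-A spikes (0.21 and 0.10). Of 4 epithelial markers 2 fell, Epcam and Krt8, neither of which passed by the poly-A spikes. The epithelial sums as deposited were 29.0 to 34.2 in arrays labelled DKO and 43.4 to 44.4 in WT arrays. Of 4 leukocyte markers Cd68 rose (sums 48.0 to 53.3 and 27.2 to 31.2), while Ptprc had means of 2.64 and 2.59. All counts of markers stand beside 24.3% higher and 35.5% lower among all genes. The part of these markers in the results for the contractile genes was not tested.

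**Figure D4:**
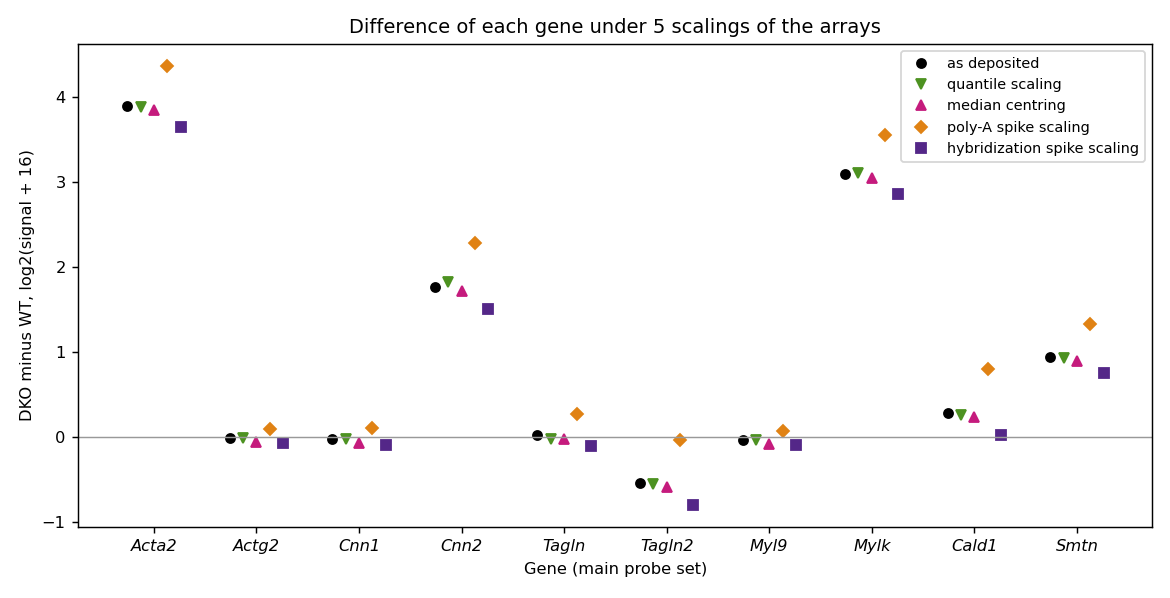
Difference, labelled DKO minus WT on log2(signal + 16), of the main probe set of the 10 genes as deposited and under 4 other scalings of the arrays. Acta2 (3.66 to 4.37), Mylk (2.87 to 3.56), Cnn2 (1.51 to 2.28) and Smtn (0.76 to 1.33) stay above 0 under all 5, while Cald1 comes to 0.02 under hybridization and Tagln2 to -0.02 under poly-A spike scaling.

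The mean log2 signal of the poly-A spikes, added before labelling, was lower in arrays labelled DKO by 0.52, and that of the hybridization spikes, added after it, was higher by 0.26 (two-sided exact permutation p = 0.1 for each, the smallest possible). With these as the common level, the median difference of all genes was 0.12 and -0.12, in that order, against -0.03 as deposited. The median of the 10 contractile genes was 0.54 and -0.02. Acta2, Mylk, Cnn2 and Smtn rose under each of the 5 scalings, and the calls of Cald1 and Tagln2 were each lost under 1 of them.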

How the data were processed

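RNA of 6 samples was labelled with biotin from 6 µg of total RNA and hybridised to Affymetrix arrays, per the labels' protocols. The deposited values are probe set intensities on a linear scale. They come from MAS5, per the submitters' processing notes. Its version and its scaling target are not stated there, and no detection calls were used. The number of arrays limits the precision. Groups and replicate numbers come from the titles. Of 45101 probe sets, 64 are controls, 34945 have 1 gene symbol (34741 updated by Entrez number from RefSeq), 932 several and 9160 none here. Every value column matched 1 sample.

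Signals were taken as log2(signal + 16), and labelled DKO minus WT was tested two-sided with limma 3.58.1 in R 4.3.3 (lmFit, eBayes with trend), with Benjamini-Hochberg adjustment over all 18193 genes, or over all 45037 probe sets that are not controls. The fit was tested on simulated data. Named genes were the 10 genes with every probe set, Abl1 and Abl2, the markers, and up to 4 called genes per related list with those needed to say what did not pass. The members and lists were chosen with earlier results of these data known. Related genes without a probe set of 1 gene were not analysed here. Alternatives were the offset, 4 scalings, a filter on dim genes, the mean over a gene's probe sets, no probe sets marked x, s or a, other variance models, the replicate block, each array left out, and a 2-fold threshold. Promoters come from RefSeq, and the search for CArG-like sites and the MCAT element was added after the promoters were seen. Figures were drawn with matplotlib 3.10.9.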

Additional observations from a re-analysis of the deposited data

How the results depend on the processing

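The 5 rises and 1 fall among the 10 genes were 5 and 1 under both offsets, quantile scaling, dim genes left out, averaged probe sets, both variance models and with each array left out. Counts of falls were 3 with arrays centred on their median (Cnn1 -0.07 and Myl9 -0.08 added), 3 under hybridization spike scaling (both at -0.08), and 0 under poly-A spike scaling, where 9 rose. Without probe sets marked x, s or a, where Actg2, Smtn and Tagln2 have none, 4 rose and 0 fell. With a 2-fold threshold 3 rose, 0 fell, 4 of the 20 probe sets were called in place of 15, and 2894 genes in place of 10873. Directions turned for Tagln under quantile (-0.0237), median (-0.0224) and hybridization spike (-0.10) scaling, for Actg2 (0.10), Cnn1 (0.12) and Myl9 (0.0775) under poly-A spike scaling, and for Actg2 without DKO replicate 3 (-0.0219 to 0.0125 over the arrays left out in turn). The cause was not tested. Leaving out 1 array in turn gave 10229 to 10596 genes and 13 to 15 probe sets.

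Same-numbered arrays correlated at 0.04, 0.12 and 0.17 in their deviations from the group means, and each array correlated best with its own number, a hint from the data and not from the design. With the replicate block, 10944 genes were called, 5 of the 10 genes rose and 1 fell, and 15 of the 20 probe sets were called. Without detection calls, signals near the lower quartile give no order between genes, and the fold changes of dim genes are understated.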
